A study of Mus musculus with 16 samples.

Results

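The endoplasmic reticulum (ER) chaperones Hspa5, Hsp90b1, Calr and Canx, the oxidoreductases Pdia3, Pdia4 and Pdia6, the co-chaperone Dnajb9, the degradation factor Edem1 and the transcription factor Xbp1 were followed in mouse liver. They were taken from the deposited count table by symbol, and all 10 were found, each on 1 line, among 40324 distinct symbols. Liver RNA came from db/db mice, a strain in which a defect of the leptin receptor gene leads to obesity and diabetes. A group of 8 livers came from mice that had received adeno-associated virus 8 (AAV8) carrying arcA. A control group of 8 livers came from mice that had received AAV8 carrying GFP. All animals of both groups carried db/db, were littermates injected at about 5 weeks of age, and gave liver at 10 weeks of age. The sources used here give neither what arcA encodes nor the promoter of either insert, and each library is labelled as 1 numbered liver. Whole liver was sequenced, so every value is a mean over hepatocytes and all other liver cells, and fewer cells of a type cannot be told apart from less RNA per cell.

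The ER is where secreted and membrane proteins are folded, and hepatocytes, which make most plasma proteins, depend on it heavily. When unfolded protein builds up, 3 sensors in the ER membrane (IRE1, PERK and ATF6) start the unfolded protein response, which raises the genes of chaperones and of degradation. IRE1 splices the Xbp1 mRNA so that it encodes an active transcription factor, and ATF6 is cut by proteases into one; both act on chaperone promoters. Counts per gene do not separate spliced from unspliced Xbp1, so the levels below are of the whole transcript.

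The best known promoter element of this response is the ER stress response element (ERSE), in which the CCAAT box is bound by NF-Y and the CCACG part by ATF6 or XBP1. The promoter windows of RefSeq (GRCm38.p6, 250 bases before to 50 after each start) were searched on both strands for ERSE, which is CCAAT and CCACG with any 9 bases between them. Of the 10 members, all with 1 window, 5 held an exact match, against 39 of 32851 windows of all genes (0.119%). The matches are shown because they are the sequence feature that divides the set; capitals mark the CCAAT and CCACG parts, and positions count back from the start, whose first transcribed base is +1.
Hspa5, -65 to -47, gene strand: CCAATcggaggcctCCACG
Hsp90b1, -212 to -194, gene strand: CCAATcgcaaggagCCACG
Hsp90b1, -107 to -89, opposite strand: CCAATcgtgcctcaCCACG
Calr, -162 to -144, opposite strand: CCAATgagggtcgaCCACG
Canx, -145 to -127, gene strand: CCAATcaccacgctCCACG
Pdia6, -98 to -80, gene strand: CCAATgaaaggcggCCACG
Pdia3, Pdia4, Dnajb9, Edem1 and Xbp1 held no match to these letters in this window. The related elements ERSE-II (ATTGG and CCACG with any 1 base between them, in 0.0365% of all windows) and UPRE (TGACGTGG, in 0.676%) were in 0 of the 10 member windows. The CCAAT box alone was in 9 of 10 member windows and in 37.4% of all windows, and CCACG alone was in 8 of 10 and in 32.8%. These pentamers also make up the ERSE matches, and a match is a description of letters, not a site of binding. ERSE was searched as a known element of chaperone promoters, so its share among the members is not a test of enrichment.

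The 250 bases before the start are given for the best known ERSE gene and for the pair of members that passed the test below. In Hspa5 (chr2:34771840-34772089, plus strand, GRCm38.p6), capitals mark the ERSE match. In Pdia4 (chr6:47813513-47813762, minus strand) and Edem1 (chr6:108828391-108828640, plus strand), capitals mark CCAAT and CCACG on either strand.
Hspa5: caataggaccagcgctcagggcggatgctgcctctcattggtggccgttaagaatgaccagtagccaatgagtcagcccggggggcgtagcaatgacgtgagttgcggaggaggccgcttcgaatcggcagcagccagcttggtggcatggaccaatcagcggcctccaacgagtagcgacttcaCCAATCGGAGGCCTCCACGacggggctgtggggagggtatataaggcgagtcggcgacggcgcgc
Pdia4: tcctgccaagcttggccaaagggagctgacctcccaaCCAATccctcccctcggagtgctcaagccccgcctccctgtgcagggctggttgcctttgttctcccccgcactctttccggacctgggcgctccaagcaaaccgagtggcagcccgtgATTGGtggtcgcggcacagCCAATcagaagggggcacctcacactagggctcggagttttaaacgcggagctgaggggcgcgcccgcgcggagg
Edem1: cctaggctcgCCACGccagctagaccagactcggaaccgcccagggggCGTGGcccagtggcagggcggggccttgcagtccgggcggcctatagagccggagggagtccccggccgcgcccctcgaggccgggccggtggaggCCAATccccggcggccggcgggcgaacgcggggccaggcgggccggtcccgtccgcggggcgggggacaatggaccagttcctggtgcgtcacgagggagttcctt
The Pdia4 stretch holds 3 CCAAT boxes and 0 CCACG (its whole window holds 1), and the Edem1 stretch holds 1 CCAAT and 2 CCACG, none at the ERSE spacing.

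Most of the set differed between arcA and GFP livers by less than the spread between livers. Pdia4 and Edem1 were higher in arcA livers, by 1.19-fold and 1.15-fold, and no other member passed the test. Of the 10 members, all tested, 2 were higher and 0 lower (quasi-likelihood test of edgeR, adjusted p under 0.05), where 4.27% of the 14476 tested genes were higher and 6.57% lower. DESeq2 and limma voom each called 3 members higher and 0 lower, Canx being the added one. These tests also called more of all genes, with 780 higher and 1255 lower for DESeq2 and 800 higher and 1130 lower for limma voom. The member median log2 fold change (arcA over GFP) was 0.059, beside 0.0091 over all tested genes. Groups overlapped for all 10 members in CPM (counts scaled to library size, with TMM factors), where 1.76% of tested genes had none (0.566% with all arcA livers above all GFP livers and 1.2% with all below).

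**Figure D1:**
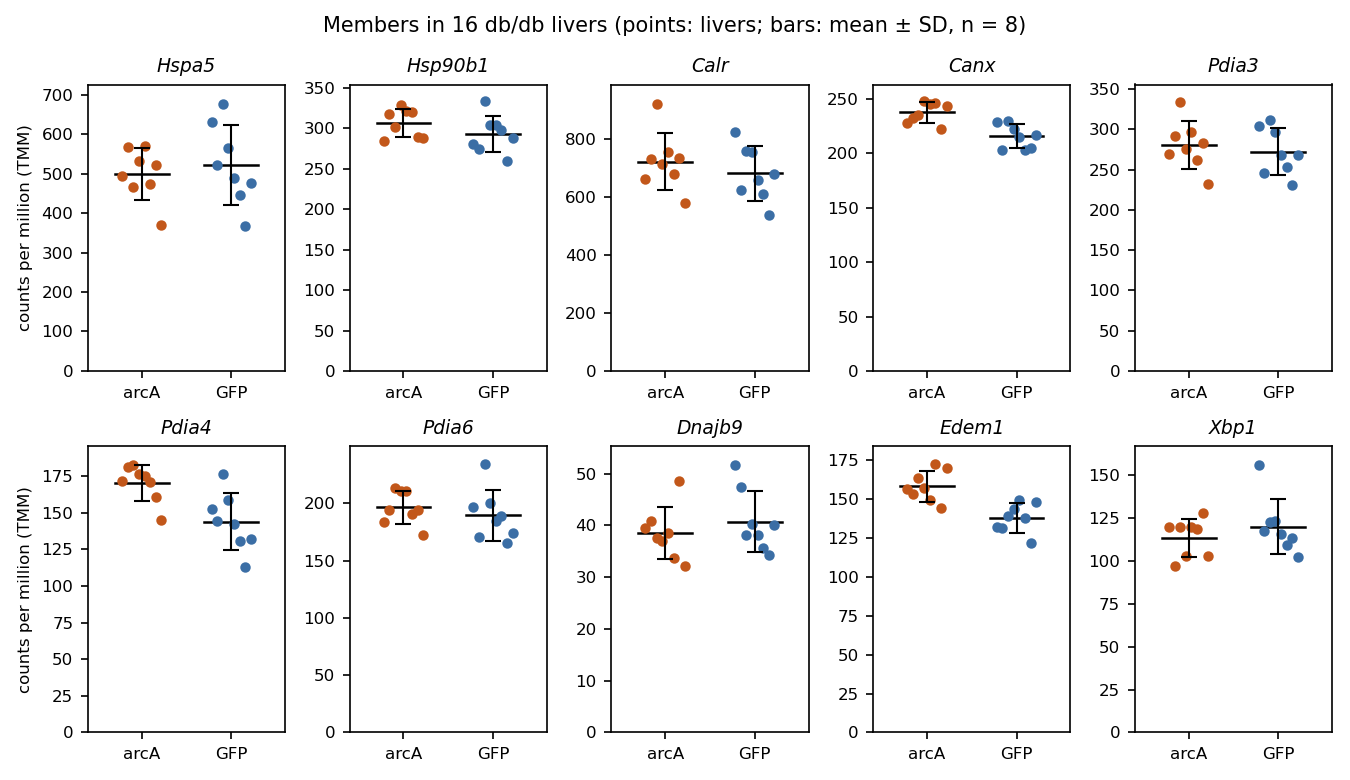
CPM (TMM scaled, linear axis from 0) of the 10 genes in each liver, arcA left and GFP right; points are livers and bars the mean ± SD (n = 8 per group). Groups overlap in every panel; for Canx, Pdia4 and Edem1 all 8 arcA livers lie above the GFP median.

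Libraries held 37325610 to 45874797 counts in arcA and 28912563 to 53520828 in GFP livers. Gm42418, a gene overlapping ribosomal RNA sequence, took 2.45% to 7.37% of counts in arcA and 2.29% to 19.4% in GFP livers, with 11.8%, 18.1% and 19.4% in GFP 2, 3 and 5. The hepatocyte list stood at 107674 to 127261 CPM in arcA and 95432 to 110832 CPM in GFP livers in sum, with all 19 markers tested. Acinar cells of the pancreas, which are rich in ER, left 12 counts over 16 libraries for 9 of 10 markers, with Amy2a5, Cela2a, Try4 and Clps at 0. The remaining marker, Cela1, was the 1 acinar gene that passed the filter, at 5.08 ± 0.722 CPM in arcA and 5.07 ± 1.11 CPM in GFP livers (SD, n = 8 each), and the list summed to 3.98 to 6.19 CPM in arcA and 3.73 to 7.07 CPM in GFP livers.

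Hspa5, also called BiP or GRP78, is the Hsp70 chaperone of the ER lumen and holds the sensors inactive. Its CPM ran from 369 to 571 with a median of 507 in arcA livers, against 367 to 676 with a median of 507 in GFP livers. The ranges overlapped almost wholly, and arcA 8 and GFP 7 were the lowest of their groups. Its log2 fold change was -0.064 (SE 0.110, adjusted p = 0.786), a 0.957-fold level with a 95% interval of 0.812 to 1.13. Hsp90b1 (GRP94), the Hsp90 of the ER, had 285 to 329 CPM in arcA livers (median 310), against 260 to 334 in GFP livers (median 293). Its log2 fold change was 0.066 (SE 0.056, adjusted p = 0.512), with the fold between 0.963 and 1.14.

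Calr and Canx bind the trimmed sugar chains of new glycoproteins, Calr in the lumen and Canx in the membrane. Calr had 579 to 921 CPM in arcA livers (median 720), against 536 to 824 in GFP livers (median 668), and its log2 fold change was 0.083 (SE 0.092, adjusted p = 0.641). Its highest liver was arcA 3, at 921 CPM. Canx varied least of the 10, with a coefficient of variation of 4.05% in arcA and 5.15% in GFP livers. It had 223 to 249 CPM in arcA livers (median 240), against 203 to 230 in GFP livers (median 216), and all 8 arcA livers were above the GFP median. The share of all tested genes with all 8 arcA livers above the GFP median was not counted, here or for Pdia4 and Edem1. The log2 fold change of Canx was 0.14 (SE 0.046, adjusted p = 0.0538), a 1.10-fold level with an interval of 1.03 to 1.18. It thus missed the threshold, but passed without arcA 7, GFP 1 or GFP 3 (adjusted p down to 0.0426).

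The protein disulfide isomerases form and rearrange disulfide bonds in the lumen. Pdia4 (ERp72) rose to 171 ± 12.3 CPM in arcA livers, against 144 ± 19.5 CPM in GFP livers (SD, n = 8 each). Its arcA livers ran from 145 to 183 CPM (median 173), and its GFP livers from 113 to 177 CPM (median 143). The lowest arcA liver was arcA 8 and the highest GFP liver GFP 3. The log2 fold change was 0.25 (SE 0.075, adjusted p = 0.0387), with a 95% interval of the fold from 1.06 to 1.32. Its call was lost in 11 of 16 fits without 1 library, those without arcA 1 to 6 or GFP 2, 5, 6, 7 or 8 (adjusted p from 0.0607 to 0.0841). Pdia3 (ERp57), the partner of Calr and Canx, had 232 to 334 CPM in arcA livers (median 279), against 231 to 312 in GFP livers (median 268). Pdia6 had 173 to 213 CPM in arcA livers (median 194), against 165 to 235 in GFP livers (median 187). The log2 fold changes were 0.043 for Pdia3 (SE 0.074, adjusted p = 0.786) and 0.053 for Pdia6 (SE 0.068, adjusted p = 0.697), so these isomerases differed by less than the spread between livers.

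Edem1 draws misfolded glycoproteins toward degradation and is a target of Xbp1. It rose to 158 ± 9.91 CPM in arcA livers, against 138 ± 9.45 CPM in GFP livers (SD, n = 8 each). The arcA livers held 144 to 173 CPM (median 157), and the GFP livers 122 to 150 CPM (median 139); 8 of 8 arcA livers were above the GFP median. Its log2 fold change was 0.20 (SE 0.052, adjusted p = 0.0175), with the fold between 1.06 and 1.24. The call was lost without arcA 6 or GFP 2 (adjusted p = 0.0533 and 0.0541), and without GFP 2, 3 and 5 together (0.20, adjusted p = 0.0558). Dnajb9 (ERdj4), a J-domain partner of Hspa5 and also a target of Xbp1, had 32.1 to 48.7 CPM in arcA livers (median 38.1), against 34.4 to 51.7 in GFP livers (median 39.2). Its log2 fold change was -0.082 (SE 0.088, adjusted p = 0.627).

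Xbp1 itself had 96.9 to 128 CPM in arcA livers (median 119), against 102 to 156 in GFP livers (median 116). GFP 1, at 156 CPM, stood apart from the next GFP liver at 123 CPM. The log2 fold change of Xbp1 was -0.080 (SE 0.076, adjusted p = 0.575), a 0.946-fold level with an interval of 0.845 to 1.06, and without GFP 1 it was -0.016 (adjusted p = 0.910).

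**Figure D2:**
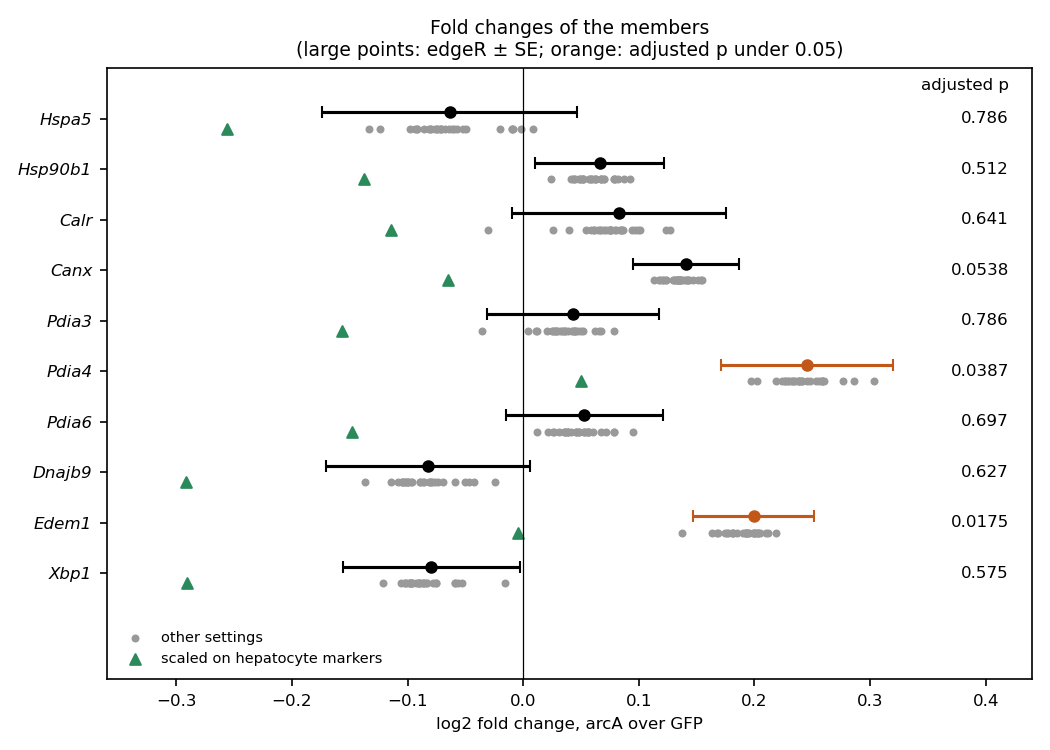
log2 fold change, arcA over GFP, of each gene: large points are the edgeR value ± SE, small grey points the other settings, and green triangles the fit scaled on hepatocyte markers. Pdia4 (0.25) and Edem1 (0.20), in orange, have an adjusted p under 0.05, and every triangle lies to the left of its large point.

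The direction of these small differences depended on the scale. Scaling on the 19 hepatocyte markers moved the median of all tested genes to -0.20 on the log2 scale. Pdia4 then stood at 0.050 and Edem1 at -0.0047, both without a call, while Hspa5 (-0.26), Dnajb9 (-0.29) and Xbp1 (-0.29) passed as lower (adjusted p = 0.0433, 0.0348 and 0.0205). In the same fit 3448 of the 14476 tested genes were lower and 62 higher, beside 3 of 10 members lower and 0 higher. Relative to that shifted median, Pdia4 was 0.25 and Edem1 0.20 higher, Canx 0.14 higher, and Hspa5 0.052, Dnajb9 0.088 and Xbp1 0.087 lower.

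A ratio of 2 genes within a library needs no scaling, and each member was therefore also set against Hspa5. There were 30.7 to 39.3 Pdia4 counts per 100 Hspa5 counts in arcA livers (median 34.0), against 24.2 to 30.8 in GFP livers (median 27.9). Of the arcA livers, 7 of 8 exceeded every GFP liver, and 8 of 8 exceeded the GFP median. The groups overlapped slightly in this ratio. Of 14473 other genes, 0.221% had all arcA livers above all GFP livers, which Pdia4 did not. The shares of genes with 7 of 8 arcA livers above every GFP liver, or 8 of 8 above the GFP median, were not counted. Edem1 counts per 100 Hspa5 counts were 26.2 to 46.0 in arcA livers (median 30.6), against 20.6 to 33.2 in GFP livers (median 28.0), and 3 arcA livers exceeded every GFP liver. Xbp1 had 17.1 to 27.8 in arcA livers (median 24.4), against 18.1 to 31.0 in GFP livers (median 23.0). The ratios of the other members also overlapped, with at most 2 arcA livers above every GFP liver.

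Per kilobase of exon (GENCODE M21 exon unions), the members had the same order of mean level in both groups. Calr led with 250 ± 33.9 CPM per kilobase in arcA and 236 ± 32.7 in GFP livers (SD, n = 8 each). Hspa5 followed with 118 ± 15.5 in arcA and 123 ± 23.8 in GFP livers. Then came Pdia3, Hsp90b1, Pdia4, Pdia6, Canx, Xbp1 and Edem1. Dnajb9 was lowest, with 15.1 ± 1.96 CPM per kilobase in arcA and 15.99 ± 2.33 in GFP livers. Among neighbours in this order, every liver of the higher gene exceeded every liver of the next for Calr over Hspa5 and for Xbp1 over Edem1 in both groups. Pdia4 and Pdia6, Canx and Xbp1, and Edem1 and Dnajb9 separated in this way in arcA livers and overlapped in GFP livers. The remaining neighbours overlapped in both groups. Exon unions count all annotated isoforms, so a gene that uses short isoforms is understated.

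From liver to liver, Pdia4, Calr and Pdia3 varied together with Hspa5 in the GFP group by Pearson's r, and Pdia4 alone also by Spearman's rho after adjustment. How many of all tested genes follow Hspa5 as closely was not counted, so the relation cannot be called particular to these genes. Over the 8 GFP livers, Pearson's r of log2 CPM with Hspa5 was 0.96 for Pdia4 (Spearman's rho 0.98; exact permutation p = 0.000322 and 0.000397, adjusted 0.0058 and 0.00714 over 18 relations). For Calr it was 0.92 (rho 0.88; exact permutation p = 0.00228 and 0.00724, adjusted 0.0137 and 0.0652), and for Pdia3 0.91 (rho 0.83; exact permutation p = 0.00208 and 0.0154, adjusted 0.0137 and 0.0692). The other 6 relations in GFP livers had r from 0.31 (Edem1) to 0.82 (Canx) and an adjusted exact permutation p above the threshold. Without GFP 3 and 7, the livers farthest from the Hspa5 median, r was 0.88 for Pdia4, 0.88 for Calr and 0.78 for Pdia3, but -0.33 for Hsp90b1 and -0.45 for Edem1, whose positive values (0.64 and 0.31) rest on those livers. Xbp1 had r = 0.63 (rho 0.83; exact permutation p = 0.0977 and 0.0154), which was 0.91 without GFP 3 and 7.

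In the 8 arcA livers, 0 of 9 relations with Hspa5 passed the adjustment, and r ran from -0.73 for Edem1 (rho -0.74; exact permutation p = 0.0349 and 0.0458, adjusted 0.105 and 0.118) to 0.73 for Pdia4 (rho 0.36; exact permutation p = 0.0568 and 0.389, adjusted 0.146 and 0.467). Without arcA 5 and 8, r of Pdia4 was 0.037, and that of Edem1 -0.64. Points share library and scaling, and whether the relations differ between the groups was not tested. Coefficients of variation ran from 4.05% to 13.5% in arcA and from 5.15% to 19.2% in GFP livers.

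**Figure D3:**
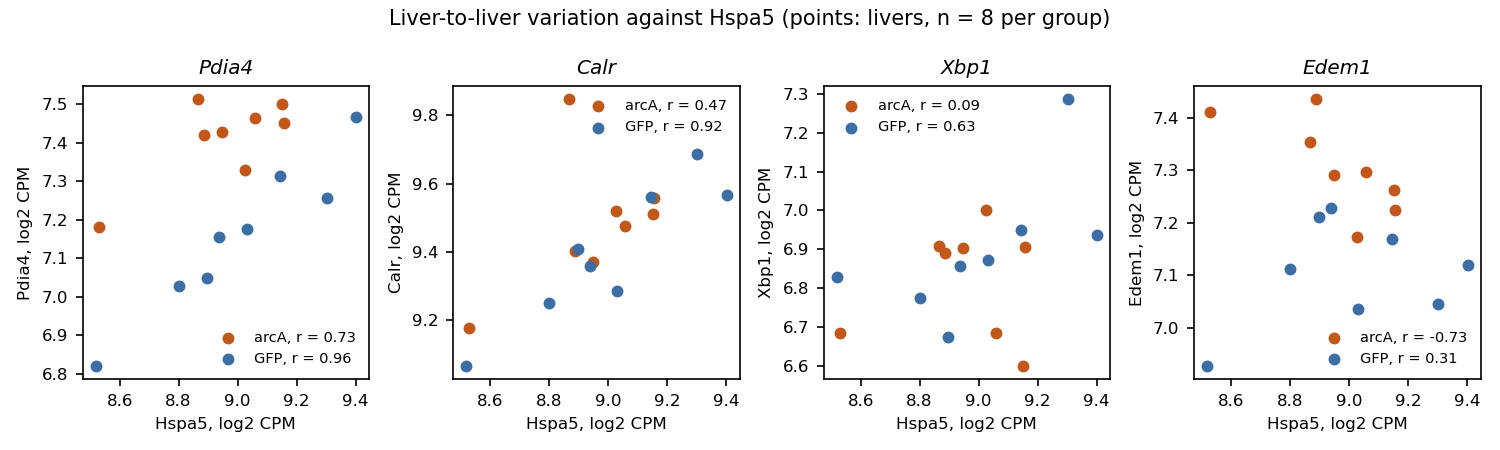
log2 CPM of Pdia4, Calr, Xbp1 and Edem1 (vertical axes) against that of Hspa5 (horizontal axes); points are livers, arcA in orange and GFP in blue (n = 8 each). At a like Hspa5 level the arcA points of Pdia4 lie above the GFP points, and GFP 1 is the high Xbp1 point.

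Among 12077 other genes with at least 1 CPM, 5 were named whose within-group deviations were most like the mean of the members over the 16 livers. These were Spcs2, a subunit of the signal peptidase of the ER (r = 0.93, rho = 0.84), the pseudogene Gm8893 (0.93 and 0.90), Gabarapl1 of the autophagy machinery (0.92 and 0.87), the gap junction gene Gjb1 (0.91 and 0.91) and Hsd17b2, a steroid dehydrogenase (0.90 and 0.85). They were picked as the highest of all, so no p is given. Without GFP 7 and arcA 8, the livers farthest out, r was 0.83 to 0.86. Of the 5, Gjb1 was also higher in arcA livers (log2 fold change 0.28, adjusted p = 0.0264), and Spcs2 stood at 0.0069.

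In 6 lists of other ER machinery, 13 of 112 tested genes passed (11.6%, beside 10.8% of all tested genes), 9 of them higher (8.04%, beside 4.27%) and 4 lower (3.57%, beside 6.57%). The counts of each list below stand beside these same shares of all tested genes. Values are log2 fold changes with edgeR's adjusted p, and those of called genes ran from -1.61 for Atf3 and -0.84 for Creb3l1 to 0.41 for Pdia5. Of 25 other folding factors, all tested, 2 were higher and 1 lower, at a median of 0.043. Pdia5, another disulfide isomerase, rose by 0.41 (SE 0.0998, adjusted p = 0.0129), with 37.3 to 51.8 CPM in arcA livers against 22.5 to 36.8 in GFP livers, without overlap. Mbtps1 (all arcA livers above) and Atf3 (all below), given further on, did not overlap either. Of all tested genes, 0.566% had all arcA livers above and 1.2% all below. Sil1, the nucleotide exchange factor of Hspa5, rose by 0.19 (adjusted p = 0.0153), a call lost without GFP 2, 3 and 5 (adjusted p = 0.0632). Fkbp11, a prolyl isomerase of secretory cells, fell by 0.44 (SE 0.113, adjusted p = 0.0156), to 5.61 ± 0.988 CPM in arcA livers, against 7.60 ± 1.14 CPM in GFP livers (SD, n = 8 each). P4hb, the founding member of the isomerases, had 0.18 and missed the threshold (adjusted p = 0.0557).

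Of 20 genes of ER-associated degradation, 1 was higher, at a median of 0.038. Os9, a lectin that hands misfolded glycoproteins to the ligase complex, rose by 0.26 (SE 0.065, adjusted p = 0.0154), to 271 ± 16.4 CPM in arcA livers, against 227 ± 24.9 CPM in GFP livers (SD, n = 8 each). Sel1l, the scaffold of that complex, had 0.13 (adjusted p = 0.0773) and Faf2 0.15 (adjusted p = 0.0901). Of 31 genes of translocation and N-glycosylation, 4 were higher (beside 4.27% of all tested genes), at a median of 0.0069. Stt3b and Rpn2, subunits of the oligosaccharyltransferase, rose by 0.20 and 0.21 (adjusted p = 0.0152 and 0.0162). Sec63, the J-domain partner of Hspa5 at the translocon, rose by 0.16 (adjusted p = 0.0265), and Prkcsh, the beta subunit of glucosidase II, by 0.16 (adjusted p = 0.0437). The calls of Sec63 and Prkcsh did not hold in 6 and 13 of 16 fits that left a library out (highest adjusted p 0.0795 and 0.121), and Rpn2 lost its call without GFP 2, 3 and 5 (adjusted p = 0.0820).

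Of 16 genes of ER export and retrieval, 1 was higher and 1 lower, at a median of -0.026. Kdelr1, a receptor that returns luminal chaperones to the ER, rose by 0.15 (adjusted p = 0.0386; lost in 11 of 16 fits without 1 library, up to 0.109), and Sec13, of the COPII coat, fell by 0.20 (adjusted p = 0.0105). The cargo receptors Mcfd2 (0.12, adjusted p = 0.215) and Surf4 (0.098, adjusted p = 0.234) did not pass. Of 10 stress sensors and their proteases, 1 was higher and 1 lower, at a median of 0.027. Mbtps1, the protease that cuts ATF6, rose by 0.16 (adjusted p = 0.0165; 0.128 without GFP 2, 3 and 5), and Creb3l1 fell by 0.84 to 0.970 ± 0.344 CPM in arcA livers, against 1.73 ± 0.432 CPM in GFP livers (SD, n = 8 each; adjusted p = 0.0153). Ern1, which encodes IRE1, had 0.22 (adjusted p = 0.191), and Creb3 -0.14 (adjusted p = 0.0694). Of 10 genes of the PERK branch, 1 was lower, at a median of 0.0049; Atf3 fell by 1.61 to 0.616 ± 0.192 CPM in arcA livers, against 1.88 ± 0.711 CPM in GFP livers (SD, n = 8 each; adjusted p = 0.000312). Eif2s1 had -0.16 (adjusted p = 0.0644), Ppp1r15b 0.091 (adjusted p = 0.204) and Nupr1 -0.34 (adjusted p = 0.484).

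Of 14 cytosolic and mitochondrial chaperones, 0 passed with edgeR (beside 10.8% of all tested genes), at a median of 0.085. The 4 with the smallest p were Hsp90ab1 (0.18, adjusted p = 0.0814), Hsph1 (0.47, adjusted p = 0.0944), Hspd1 (0.12, adjusted p = 0.151) and Dnajb1 (0.16, adjusted p = 0.200). Among these 4, DESeq2 called Hsp90ab1 and Hsph1 (adjusted p = 0.0357 and 0.0297), and limma voom called Hsp90ab1 (adjusted p = 0.0318).

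None of the rises called in the ER lists kept its call under every scaling. With library size alone, Sil1, Mbtps1, Stt3b, Rpn2, Sec63, Prkcsh and Kdelr1 lost their calls (adjusted p from 0.129 to 0.378), and with scaling on hepatocyte markers all of them but Rpn2 turned slightly lower, without a call. Pdia5 and Os9 kept their direction and lost their calls under the hepatocyte scaling alone (0.22 and 0.058, adjusted p = 0.0661 and 0.511). Creb3l1 lost its call with surrogate variables (-0.69, adjusted p = 0.0828). Fkbp11, Sec13 and Atf3 kept their calls in all 30 alternatives. Other genes passed in some alternatives: Eif2s1 as lower in 9 of 30, among them upper-quartile scaling and DESeq2 (adjusted p = 0.0341 and 0.0354), and Creb3 as lower in 7 of 30. P4hb passed as higher with DESeq2 and limma voom (adjusted p = 0.00627 and 0.0339), Sel1l with DESeq2 (0.0465), and Faf2, Hsph1 and Dnajb1 with surrogate variables (0.0173, 0.0371 and 0.0215). With the replicate number as a block, Ern1 passed as higher (0.22, adjusted p = 0.0147), in 1 of 30 alternatives.

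**Figure D4:**
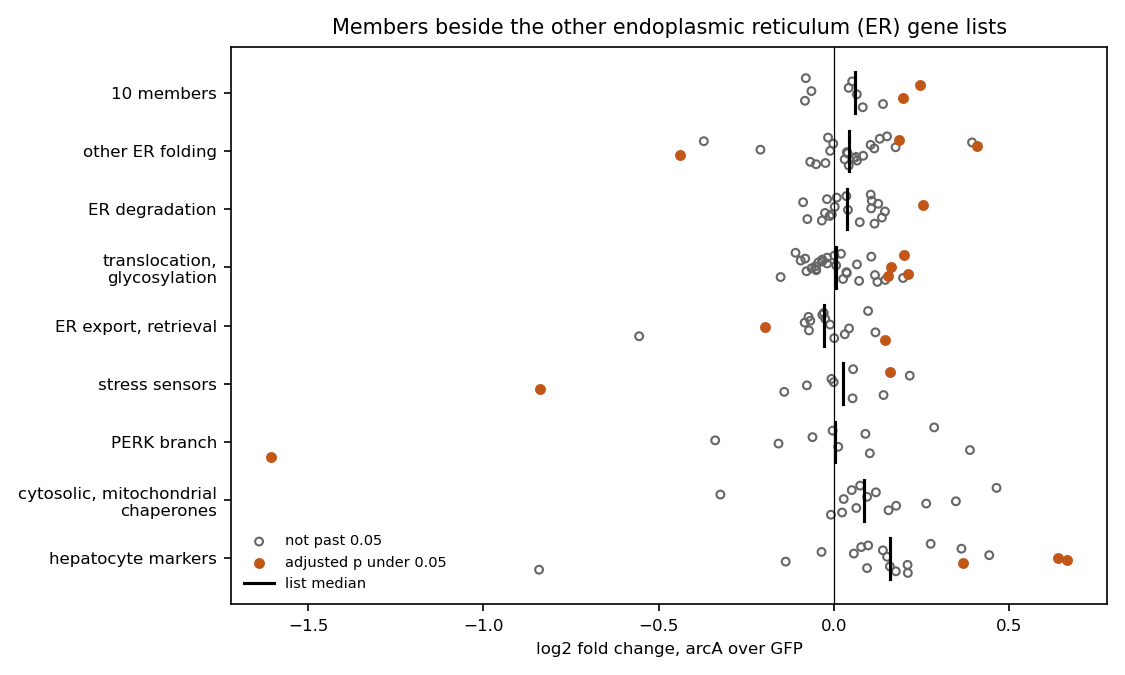
log2 fold change, arcA over GFP, of every tested gene of each list; filled points have an adjusted p under 0.05 and black bars are list medians. Member values lie between -0.082 and 0.25.

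Over 37 genes with an ERSE match in a window, 18 were tested and 13 of these were no members. Of the 13, 1 passed the test, beside 10.8% of all tested genes. Spats2l, named after its values were seen, fell by 0.74 (adjusted p = 0.0346), and the median of the 13 was 0.057. Of the 5 members with a match, 0 had an adjusted p under 0.05 with edgeR, and Canx passed with DESeq2 (0.13, adjusted p = 0.0115). Pdia4 and Edem1, which passed with edgeR, had no match. Counts this small beside that share cannot tell genes with a match from genes without.

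Markers of other cells moved far more than the members. Of 8 tested plasma and B cell markers (13 listed), 6 were lower and 1 higher, at a median of -2.31. Their summed level was 354 to 615 CPM in arcA and 397 to 599 CPM in GFP livers. Sdc1, which hepatocytes also carry at a high level, made up most of that sum and was the higher one (0.37, 440 ± 79.0 CPM in arcA and 339 ± 45.5 CPM in GFP livers). Igkc fell by 6.53 to 1.08 ± 0.329 CPM in arcA livers, against 99.8 ± 74.2 CPM in GFP livers (SD, n = 8 each; adjusted p = 1.56e-06), and Jchain, Iglc2 and Mzb1 were lower too (-5.66, -3.59 and -3.17). All 11 tested T and natural killer cell markers were lower (15 listed, 1.21 to 4.599 CPM in sum in arcA and 11.04 to 24.5 in GFP livers). Cd8b1, Cd8a, Gzma and Cd3g had log2 changes of -3.82, -4.84, -4.25 and -3.48. Of those with too few counts to test, Cd2 and Trac were also fewer (22 arcA against 187 GFP counts, and 34 against 224). The natural killer cell genes Ncr1 and Klrb1c were not (20 against 13, and 19 against 10). Of 15 macrophage markers, 10 were lower (139 to 478 CPM in arcA and 337 to 554 in GFP livers, with Gpnmb -2.75, Trem2 -2.32, Lyz2 -0.86 and Ctss -0.95). Of 12 stellate and endothelial markers, 7 were lower (223 to 288 CPM in arcA and 310 to 427 in GFP livers; Dcn -0.50, Pdgfrb -0.57, Col1a2 -0.96 and Col1a1 -1.39). The hepatocyte list had 3 of 19 higher and 0 lower, at a median of 0.16. Fga had 0.67, Fgb 0.64 and Cyp2e1 0.37, and Asgr1 had 0.16 (adjusted p = 0.0514). Of the 19, 16 had a positive log2 fold change. Apoa1, named after its values were seen, was the lowest of the list (-0.84, edgeR adjusted p = 0.0879). Plasma cells carry much Xbp1, Hspa5 and Fkbp11; the part of any cell type in the levels given here was not tested.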

How the data were processed

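Raw read counts per gene symbol were deposited by the authors for 16 libraries (oligo-dT RNA-seq of liver). Per the submitters' processing notes, the build was GRCm38 and the tools were STAR 2.5.1a, bcl2fastq, Subread and its featureCounts 1.4.6-p5. The sources used here give neither annotation release nor strand setting nor how mates were counted; 68.1% to 71.4% of counts from 1 to 20 were even, so mates may have been counted separately. Of 40757 lines, 348 exact copies were removed. Depth was 28912563 to 53520828 counts.

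Genes passing filterByExpr (14476) were fitted with edgeR 4.0.16 (R 4.3.3; TMM, robust quasi-likelihood F test, group only), with Benjamini-Hochberg adjustment over all of them and a threshold of 0.05. Standard errors were derived from the fold change and F statistic, and 95% intervals used the residual degrees of freedom. Alternatives used DESeq2 1.42.0, limma 3.58.1 and sva 3.50.0 (5 surrogate variables), other scalings and filters, and libraries left out. The log2 CPM had a prior count of 2. The test was tried on simulated counts. The labels number the livers within a group but do not tie a library to an animal, so p-values measure the spread between libraries. Within groups, chi-square per gene as a mean over all genes with counts was above counting noise (14.6 to 358 over 56 pairs). Abundant genes can dominate such a mean, so it does not give the spread of a typical gene or of the members.

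Members and lists were chosen with earlier results of these data known. The text names all 10 members, up to 4 genes with the smallest p of each list, and the 5 genes most like the members; 1 gene that this rule picks is not reported here. Loci that overlap a member on the other strand (Catsper2 with Pdia3, 1810014B01Rik with Hsp90b1, Atp6v1c2 with Pdia6) had 777, 446 and 9 counts over the arcA group, and 723, 452 and 8 over the GFP group. Protein sequences were not used here.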

Additional observations from a re-analysis of the deposited data

Results flagged for a closer look

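Xbp1 in GFP 1 stood apart from its group, at 156 CPM with the nearest GFP liver at 123 CPM; the gap was 0.602 of the group's range, above the 95% limit of Dixon's test for 8 samples. Of 20 groups of member values checked, 1 passed this limit, where chance gives about 1 in 20. GFP 1 also had the highest GFP values of Calr (824 CPM) and Dnajb9 (51.7 CPM).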

How the results depend on the processing

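The 10 members and the counts of calls were recomputed under 30 alternatives each. Of all genes, 1569 passed, and 3510 with scaling on hepatocyte markers (62 higher and 3448 lower, against 618 and 951); the other alternatives gave 1053 to 2035, with 253 higher and 800 lower for library size alone. Members passing were 2, but 1 with upper-quartile scaling, library size alone, at least 1 CPM in 8 libraries, surrogate variables, counts halved, without GFP 2, 3 and 5 and without arcA 3 and 8, and 0 to 3 without 1 library (1143 to 1684 of all genes). Pdia4 lost its call with upper-quartile scaling (0.23), the 1 CPM filter (0.22), counts halved (0.23) and hepatocyte scaling (0.050), and lay at 0.20 to 0.29 without 1 library. Edem1 lost it with library size alone (0.18), surrogate variables (0.14), without GFP 2, 3 and 5 (0.20) and without arcA 3 and 8 (0.17), and lay at 0.17 to 0.22 without 1 library. Canx passed with DESeq2 (0.13) and limma voom (0.14), and lay at 0.12 to 0.15 without 1 library. With surrogate variables Calr (-0.030) and Pdia3 (-0.036) changed sign, and without arcA 3 and 8 Hspa5 did (0.0084). With hepatocyte scaling, Hspa5 (-0.26), Dnajb9 (-0.29) and Xbp1 (-0.29) passed as lower, and Hsp90b1 (-0.14), Calr (-0.11), Canx (-0.065), Pdia3 (-0.16), Pdia6 (-0.15) and Edem1 (-0.0047) changed sign, as did Sil1 (-0.022), P4hb (-0.033), Mbtps1 (-0.051), Sel1l (-0.081), Faf2 (-0.058), Stt3b (-0.0052), Sec63 (-0.041), Prkcsh (-0.055), Ppp1r15b (-0.12), Kdelr1 (-0.065), Mcfd2 (-0.095), Surf4 (-0.11), Hsp90ab1 (-0.030), Hspd1 (-0.090), Dnajb1 (-0.055) and Asgr1 (-0.046). Cela1 lay near 0 and changed sign under RLE scaling (-0.0056), upper-quartile scaling (-0.017), library size alone (-0.024), hepatocyte scaling (-0.22), the 1 CPM filter (-0.021), DESeq2 (-0.0058), counts halved (-0.017), without GFP 2, 3 and 5 (-0.0012), without Gm42418 and Lars2 (-0.0027) and without 1 library (-0.064 to 0.087), never with a call. Hepatocyte scaling by its construction shifts all genes (median -0.20); otherwise the cause was not tested.

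Same-numbered libraries were little alike: 2 of 8 such pairs correlated above 0.1 (from -0.049 to 0.16), and 1 of 8 arcA libraries correlated best with its own number. Weak correlations cannot exclude that same-numbered livers were handled together, which the labels do not say. With the replicate number as a block, 1468 genes and 2 members passed (Pdia4 0.25, adjusted p = 0.0145; Edem1 0.20, adjusted p = 0.0209; edgeR), and Prkcsh and Kdelr1 lost their calls (adjusted p = 0.0740 and 0.0666) while Ern1 gained one (0.22, adjusted p = 0.0147).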
